A study of Rattus norvegicus and Mus musculus with 12 samples.

Results

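Cultured rat chondrocytes with and without interleukin-1β (IL-1β) were taken as the RC (rat control) and RM (rat model) libraries of the series, 3 of each, which are 6 of its 12 libraries. All 19687 Ensembl genes of the rat table belong to the comparison, including the 5233 whose symbol has no match in the mouse table. The cells came from the articular cartilage of newborn rats of the strain labelled SD (Sprague-Dawley), and total RNA was sequenced. The RM cells received IL-1β at 20 ng/ml for 24 h, and the RC cells received none. The study asked which rodent's chondrocytes suit a culture model of osteoarthritis, and the rat comparison asks which genes differ after the cytokine. The model is a culture of isolated young cells at 1 dose and 1 time, without the surrounding joint. The study's methods call the 3 samples of a group independent, and neither they nor the labels say whether these were separate animals, so each P value measures the spread between these samples.

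The authors gave, for each library, the number of reads counted on each gene and FPKM, which is that count divided by the gene's length and by the library's total. Library totals were 24897458, 23223930 and 21114361 counts in RC1, RC2 and RC3, and 20169272, 25903459 and 23953789 in RM1, RM2 and RM3. The number of genes with at least 1 count lay between 16136 and 16339 in each library, and 1207 genes had none in any. Along the first principal component of log2 CPM (counts scaled to equal library totals), which held 70.7% of the variance, the RC libraries lay at -42.3 to -32.7 and the RM libraries at 36 to 39.6. RC1 stood apart from the other RC libraries on the second component, which held 10.2% of the variance, at 27.3 against -16.9 and -7.28. Counts in the gene lists below that change by more than 1.5 times when RC1 or another library is left out are given with that change.

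IL-1β binds a receptor on chondrocytes that passes its signal through kinases to the transcription factors NF-κB and AP-1, which switch on cytokines, chemokines and matrix-degrading enzymes. NF-κB also switches on its own inhibitors. Cartilage owes its stiffness to a network of type II collagen and aggrecan that chondrocytes build and keep up under the transcription factor SOX9, and IL-1β is widely used to make cultured chondrocytes resemble those of an inflamed joint.

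Of the 19687 genes, 13303 had enough counts to be tested. With the quasi-likelihood test of edgeR, 2429 genes (18.3%) were called up and 2238 (16.8%) down in RM at a Benjamini-Hochberg adjusted P under 0.05, the rule meant by "called", "rose" and "fell" from here on. The study's methods name 3 thresholds, on the fold change (0.85), on P (0.05) and on FPKM (1 in at least 1 library), without giving a log base or saying whether P was adjusted. They were read here as an absolute log2 fold change of 0.85 or more and an unadjusted P below 0.05. This reading, called the study's criteria from here on, gave 617 genes up (4.64%) and 519 down (3.9%). The study counted among genes shared by rat and mouse, and this reading did not return its numbers of rat genes. The median log2 fold change of all genes tested was 0.01. Most called changes were small, with a median of 1.5-fold among the rises and 1.44-fold among the falls. The FPKM of the RC and RM libraries did not overlap for 4575 of the 4667 called genes and for 6365 of the 13303 tested. A remark below that the groups were apart therefore adds little to a call. Large changes were mostly rises, since 45 called genes rose at least 16-fold and 7 fell that far, while at 2-fold the numbers were 526 and 522.

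**Figure D1:**
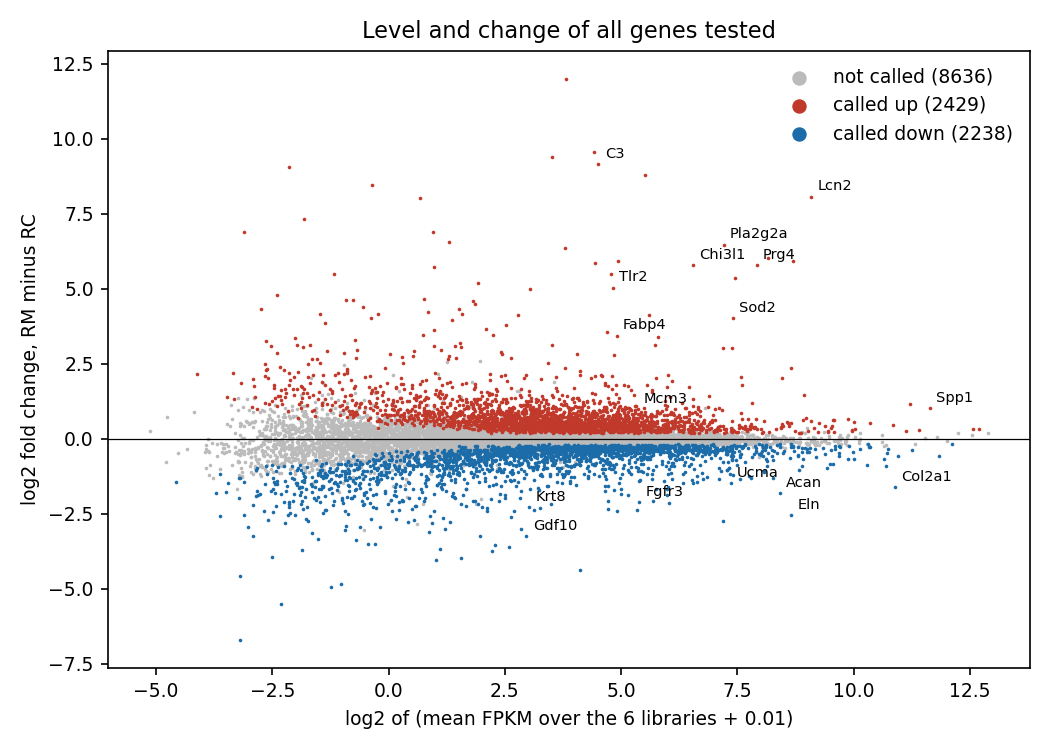
Each point is 1 of the 13303 genes tested, with the log2 of its mean FPKM over the 6 libraries on the horizontal axis and its log2 fold change, RM minus RC, on the vertical axis. Red points are the 2429 genes called up and blue points the 2238 called down, and the largest changes in the plot point upwards.

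Some of the largest differences were in genes that the RC libraries hardly held. Csf2, which encodes the growth factor GM-CSF, was not counted in RC and had 100 counts summed over RM, at least 32.6-fold higher if RC is given a floor of 3 counts summed over its libraries. Clec10a, a C-type lectin gene, had 0 and 60 counts, at least 19.6-fold higher by the same floor. Tnip3, which encodes an A20-binding inhibitor of NF-κB, had 1 count in RC and 497 in RM, so the ratio was 486 (95% counting interval 86.8 to 19235). In the other direction, the hair keratin gene Krt84 had 38 counts in RC and 0 in RM, at least 13-fold lower. Ratios and limits of this kind were scaled by library totals with TMM factors, and they cover counting error only.

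Genes without a mouse symbol match include several of the largest rises. Of 1748 such genes tested, 223 (12.8%) rose and 185 (10.6%) fell, against 19.1% and 17.8% of the 11555 with a match. By the study's criteria, 81 of these genes were up and 73 down, against 536 and 446 of those with a match. Over all genes tested the criteria called 4.64% up and 3.9% down, and the genes without a match lay near these shares. Pla2g2a (ENSRNOG00000016945) encodes a secreted phospholipase that frees fatty acids from membranes. Its FPKM was 2.79, 3.45 and 3.57 in RC1 to RC3 and 303, 295 and 279 in RM1 to RM3. The RM libraries lay close together and far above every RC library. The log2 fold change was 6.47 (adjusted P = 6.59e-11). Chi3l1 (ENSRNOG00000053272), which encodes a chitinase-like glycoprotein that chondrocytes secrete, measured 3.03, 3.6 and 3.11 FPKM in the RC libraries and 165, 189 and 195 in the RM libraries. The log2 fold change was 5.80 (adjusted P = 1.55e-10). The rule that picked both genes required groups without overlap. Mnda, an interferon-inducible nuclear protein gene, rose from 4.08 ± 0.905 FPKM (SD, n = 3) to 29 ± 1.9. Among the 6 largest falls without a match, by the rule for named genes given below, Fam25a was the most abundant. It went from 442 ± 39.9 to 179 ± 13.5 FPKM (SD, n = 3), a log2 fold change of -1.32. Ifi27l2b, a relative of an interferon-inducible gene, fell from 45.7 ± 7.47 to 16.4 ± 2.11 FPKM (SD, n = 3).

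The genes were also read through 51 lists of pathways and families. Some members passed the filter on counts only through RM, so the shares and medians of their lists lean towards rises. They include Tnip3 (NF-κB list), Csf2 (IL-6 family list), Orm1 (acute phase list) and Nos2 (nitric oxide list), with 1, 0, 2 and 0 counts summed over RC. The share of each list that was called is set beside the shares of all genes in the plot of the lists.

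**Figure D2:**
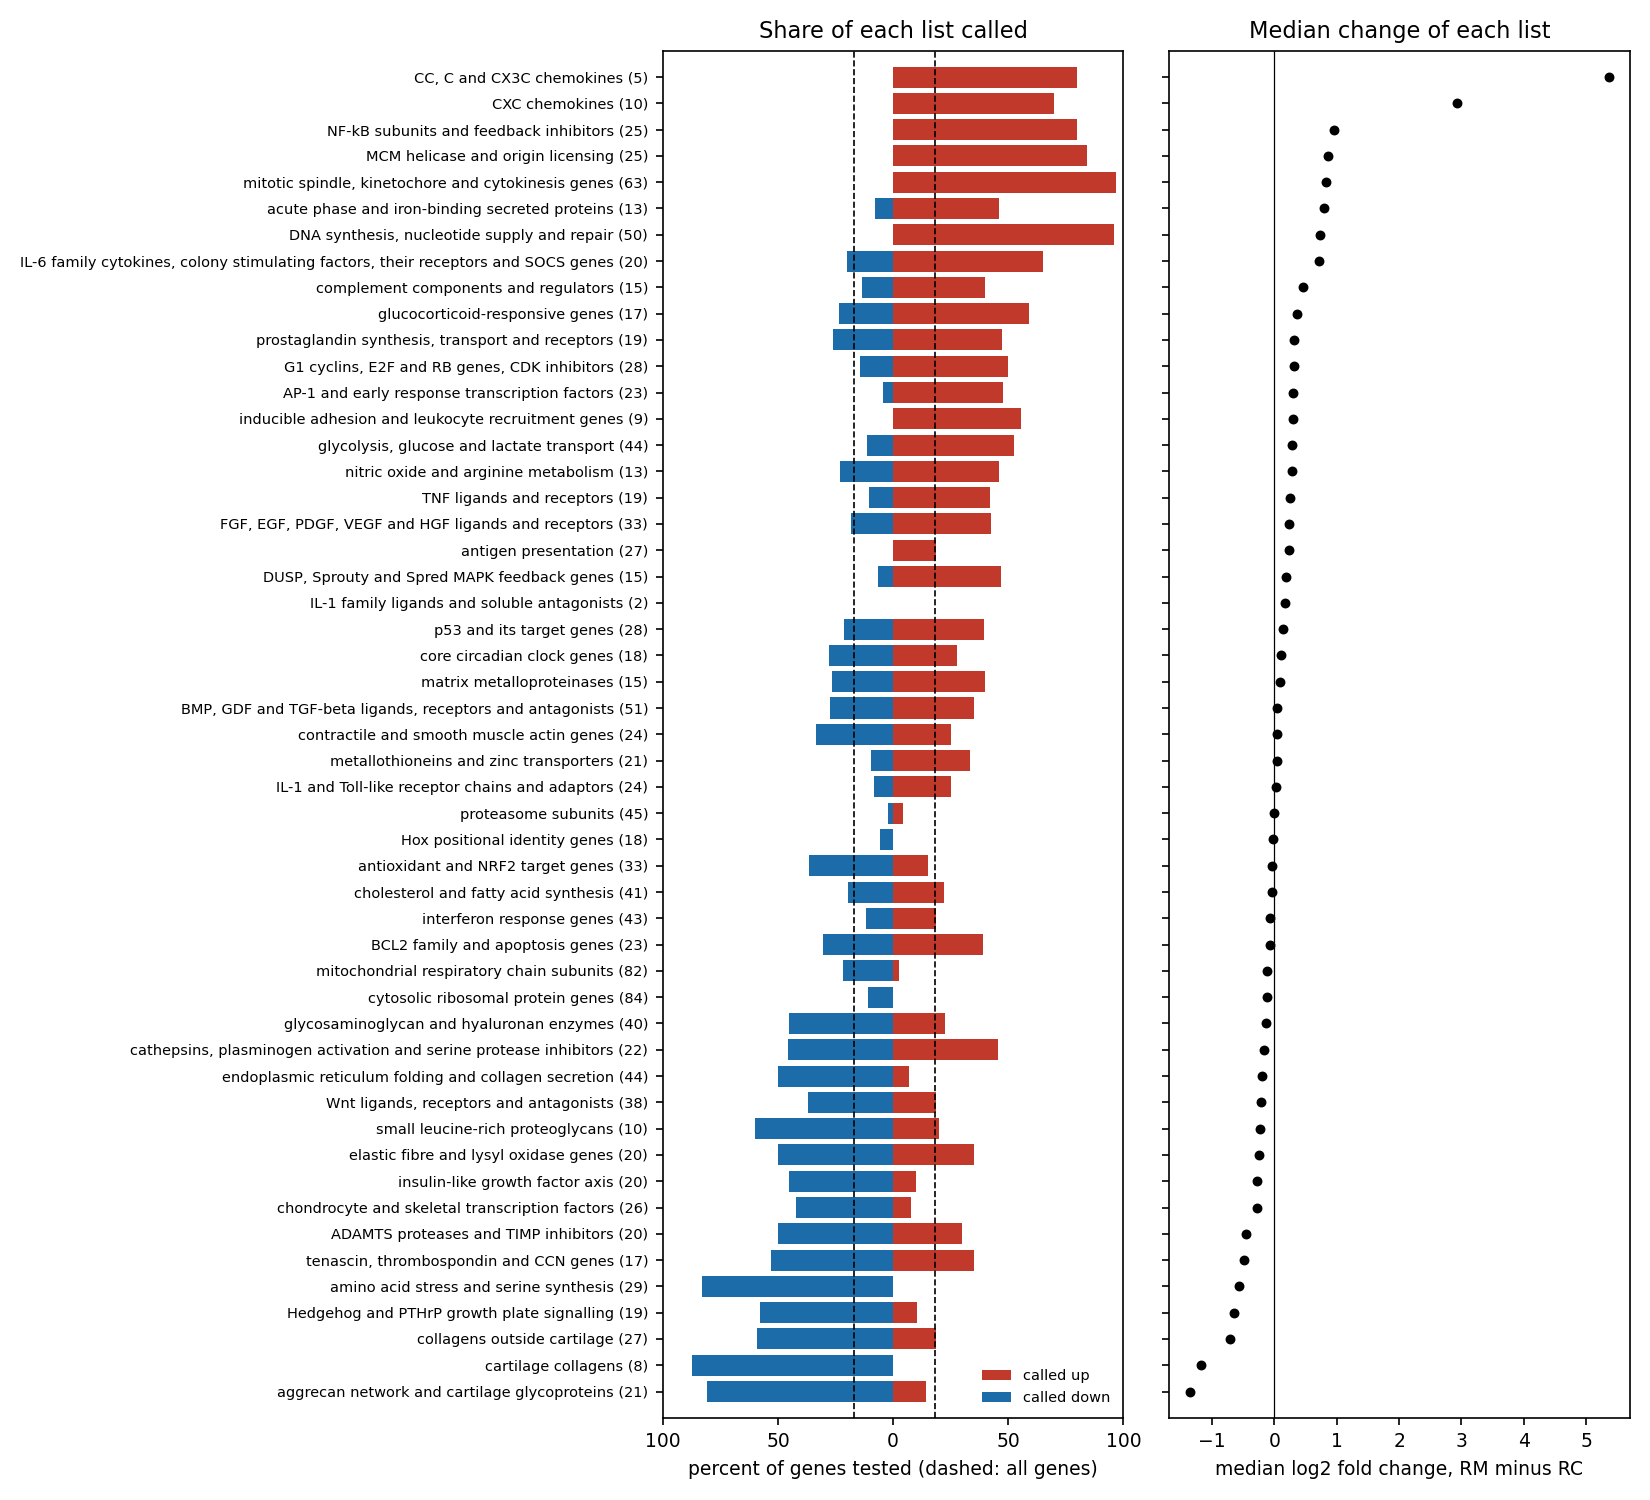
The left panel shows for each of the 51 gene lists (number of genes tested in brackets) the percent called up in red and down in blue, with dashed lines at 18.3% and 16.8%, the shares over all genes tested. The right panel shows the median log2 fold change of each list, from -1.35 for the aggrecan network to 5.36 for the CC chemokines.

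NF-κB subunits and their inhibitors rose as a group: of 25 genes, 20 rose and 5 were not called, and the median log2 fold change was 0.96 against 0.01 over all genes. Several inhibitors were among them. Nfkbia, which encodes IκBα, the protein that holds NF-κB in the cytoplasm, measured 10.6, 11.2 and 9.84 FPKM in RC1 to RC3 and 44.6, 42.7 and 48.9 in RM1 to RM3. Every RM library was above every RC library by a wide margin (log2 fold change 2.09, adjusted P = 7.91e-08). Nfkbiz encodes a nuclear IκB protein needed for a second wave of targets, and its FPKM was 0.714, 0.659 and 0.842 in the RC libraries and 12.7, 12.7 and 13.7 in the RM libraries. Zc3h12a encodes Regnase-1, an enzyme that destroys cytokine messages, and it measured 3.94, 4.39 and 3.81 and 47.3, 46.3 and 50.6 FPKM. The groups were well apart for both genes, with log2 fold changes of 4.13 and 3.55. Bcl3, Tnfaip3 (the deubiquitinase A20), Birc3 and Relb rose by log2 fold changes of 2.04, 1.73, 1.58 and 1.57. Of the subunits, Nfkb1 rose from a mean FPKM of 17.1 to 39.9, but Rela, which encodes the p65 subunit and was the most abundant subunit gene in the RC group, measured 25.2, 28.8 and 29.2 in the RC libraries and 26.7, 28.5 and 30.7 in the RM libraries. These ranges overlap, and Rela was not called (adjusted P = 0.813).

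**Figure D3:**
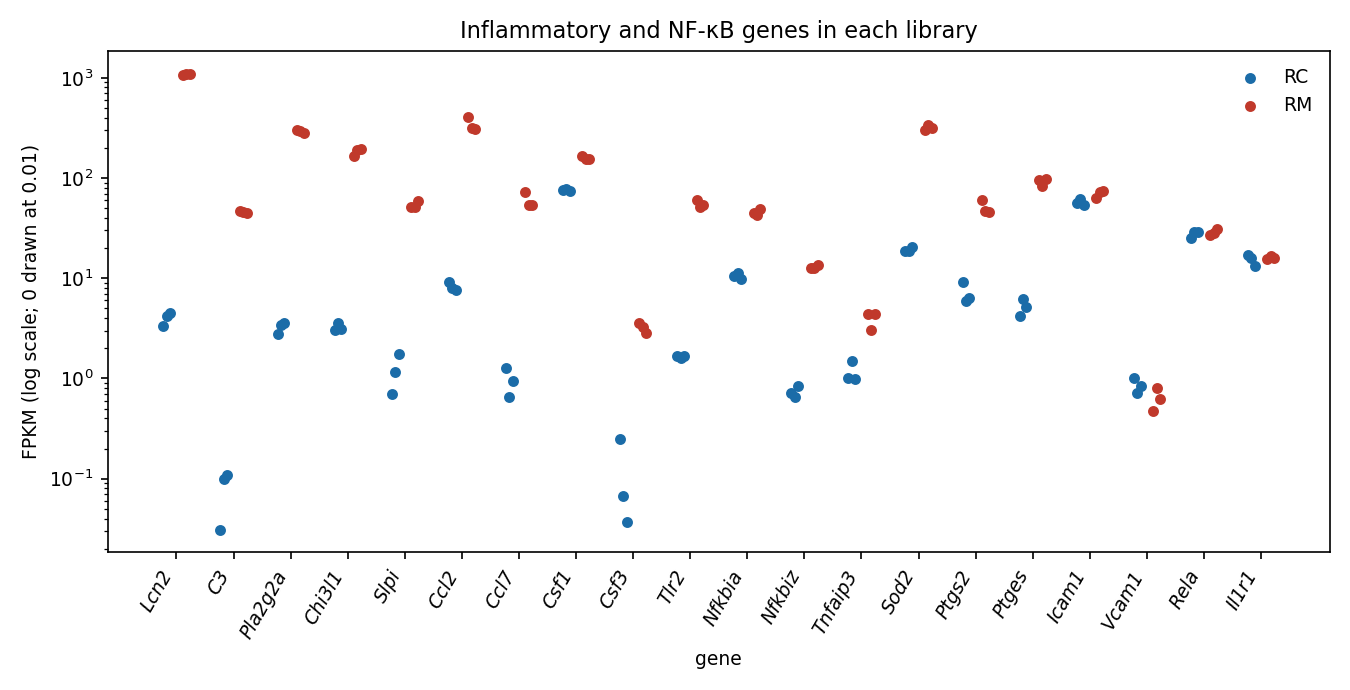
FPKM on a log scale for 20 inflammatory and NF-κB genes, with RC1 to RC3 in blue and RM1 to RM3 in red. Lcn2, C3 and Pla2g2a show the widest gaps, and the points of Rela and Il1r1 lie together.

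Of the genes for IL-1 and Toll-like receptors and their adaptors, 6 of 24 rose and 2 fell, with a median log2 fold change of 0.03. The 2 became 4 when each library's trend with gene length was removed, a setting chosen after seeing the data. Tlr2, a receptor for bacterial lipoproteins, stood out. Its FPKM was 1.69, 1.61 and 1.68 in RC1 to RC3 and 59.8, 51.3 and 54.4 in RM1 to RM3, with no overlap and a log2 fold change of 5.04 (adjusted P = 1.82e-10). The signalling receptor for IL-1 itself, Il1r1, measured 17, 16.1 and 13.2 and 15.6, 16.5 and 16 FPKM and was not called (adjusted P = 0.812). Its partner chain Il1rap rose from a mean of 3.77 to 7.11 FPKM, and Irak3, which encodes a brake on the pathway, rose from 12 to 23.5. Il1rl1, the receptor for IL-33, was the most abundant receptor gene of the list in the RC group and fell, from 201, 169 and 200.5 FPKM in the RC libraries to 103, 81.5 and 92.7 in the RM libraries. The lowest RC library lay well above the highest RM library. The adaptors Myd88 and Irak1 were not called, with log2 fold changes of -0.07 and -0.11.

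Promoters of the NF-κB genes, the chemokines and, further on, the replication genes are shown because these genes moved together and each family has a well-known motif. The 300-base windows, from 250 bases before to 50 bases after each start site, come from RefSeq on build GRCr8, a later build than the Rnor_6.0 named in the submitters' processing notes. By symbol, 9566 of the genes tested had a window. The κB consensus of 10 letters, GGGRNNYYCC (R is A or G, Y is C or T, N is any letter), was searched on both strands, where neighbouring matches may overlap. The consensus occurred in 9.96% of those 9566 windows and in 7.6% of all 27457 windows with different symbols. It occurred in 11 of the 19 windows of the NF-κB list, 5 of 8 of the CXC chemokines and 2 of 4 of the CC chemokines. It was also in 9 of 24 windows of antigen presentation genes and 9 of 34 of interferon response genes. The complement and matrix metalloproteinase lists held it in 0 of 6 and 0 of 9 windows, and the prostaglandin and TNF lists in 1 of 17 and 1 of 15. Over all genes called up and down, the shares were 11.4% and 10.5%. Windows of 4 genes that rose follow, 5′ to 3′ along the gene's strand, with κB matches in capitals. They were picked by hand and all hold a match. Cxcl1 (chr14:17479272-17479571, minus strand) held 2 overlapping matches, and Ccl20 (chr9:91836909-91837208, plus strand), Lcn2 (chr3:36081731-36082030, minus strand) and Nfkbia (chr6:78597023-78597322, minus strand) held 1 each. A match describes letters and does not show that a factor binds there.
Cxcl1: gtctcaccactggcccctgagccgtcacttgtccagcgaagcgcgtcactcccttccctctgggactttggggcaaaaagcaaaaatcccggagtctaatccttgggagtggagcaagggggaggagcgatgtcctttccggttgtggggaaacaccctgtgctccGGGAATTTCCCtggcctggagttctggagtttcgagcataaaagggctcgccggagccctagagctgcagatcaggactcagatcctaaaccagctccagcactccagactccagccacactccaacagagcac
Ccl20: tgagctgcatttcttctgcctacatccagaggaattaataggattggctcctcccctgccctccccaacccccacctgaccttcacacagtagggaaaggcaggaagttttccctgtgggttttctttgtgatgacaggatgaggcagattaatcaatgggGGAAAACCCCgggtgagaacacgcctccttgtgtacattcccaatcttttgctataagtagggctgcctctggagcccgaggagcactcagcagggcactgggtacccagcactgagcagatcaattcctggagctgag
Lcn2: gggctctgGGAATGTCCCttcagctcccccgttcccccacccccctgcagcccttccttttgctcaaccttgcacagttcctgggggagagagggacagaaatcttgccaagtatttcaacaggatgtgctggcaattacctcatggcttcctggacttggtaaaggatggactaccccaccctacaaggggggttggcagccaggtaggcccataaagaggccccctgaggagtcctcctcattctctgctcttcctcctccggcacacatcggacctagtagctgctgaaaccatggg
Nfkbia: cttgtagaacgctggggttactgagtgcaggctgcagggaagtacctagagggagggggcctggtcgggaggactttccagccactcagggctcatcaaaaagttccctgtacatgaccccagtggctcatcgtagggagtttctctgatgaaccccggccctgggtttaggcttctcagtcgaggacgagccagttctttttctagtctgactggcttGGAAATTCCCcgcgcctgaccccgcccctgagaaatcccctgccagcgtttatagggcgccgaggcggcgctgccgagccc

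AP-1 and early response factors rose in 11 of 23 cases and fell in 1, Atf3, or in 2 without RC1. Cebpd, which encodes the stress-induced factor C/EBPδ, had the largest rise of the list. Its FPKM was 21.7, 24.3 and 25 in RC1 to RC3 and 90.7, 108 and 116 in RM1 to RM3, a log2 fold change of 2.13 (adjusted P = 2.40e-07). The lowest RM library was several times the highest RC library. Junb and Fosl1, which encode AP-1 subunits, rose by log2 fold changes of 1.36 and 1.15, and Ier3 by 1.27. Jund, the gene of another AP-1 subunit, was not called over all libraries (log2 fold change -0.25, adjusted P = 0.119), but fell without RC1 (-0.40, adjusted P = 0.00033). Of 15 genes that damp MAPK signalling, 7 rose and 1, Spry1, fell. The rises numbered 4 without RM1, and the fall lost its call without RC1, RC2 or any 1 RM library, with DESeq2, with no filter on low counts, with limma and with the replicate block. Dusp6, an ERK phosphatase gene, rose from 5.64 to 9.11 FPKM. The motif TGANTCA, which reads the same on both strands, occurred in 4.9% of the 9566 windows of the genes tested and in 7.33% of all windows. It was in 4 of 9 windows of the matrix metalloproteinase list and in 0 of 16 of the list of AP-1 and early response factors. It was also in 3 of 8 windows of the CXC chemokines, 5 of 19 of the NF-κB list and 2 of 6 of the complement list. Over all genes called up and down, the shares were 5.45% and 5.61%.

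Most chemokine genes tested rose, 7 of 10 CXC genes and 4 of 5 CC, C and CX3C genes. The median log2 fold changes were 2.92 and 5.36. The data hold 14 CXC genes and 17 CC, C and CX3C genes, and the others had too few counts to be tested. Some passed that filter only through RM, such as Ccl20, with 0 counts in RC and 1534 in RM. The shares and medians of these lists therefore lean towards rises. Ccl20 and Cxcl2 are the genes of these lists with 3 or fewer counts in a group. Set at their limit or counted ratio, both stay above the medians, so the medians could not move, and this says nothing about the lean. With limma on log2(FPKM + 1) the medians were lower, at 1.94 and 4.86. Ccl2, which draws monocytes, measured 9.09, 7.99 and 7.66 FPKM in RC1 to RC3 and 409, 314 and 309.6 in RM1 to RM3. RM1 was the highest of the RM libraries, and the groups were far apart (log2 fold change 5.36, adjusted P = 1.74e-09). Ccl7, a close relative with similar targets, measured 1.28, 0.659 and 0.947 and 71.7, 53.8 and 54 FPKM. Cx3cl1, which encodes a chemokine anchored in the membrane, rose from 0.623 ± 0.159 to 7.94 ± 0.694 FPKM (SD, n = 3). Summed over the CXC genes, the FPKM was 23.8, 25.2 and 28 in the RC libraries and 826, 665 and 727 in the RM libraries, with Cxcl1 the most abundant. Cxcl1, Cxcl2 and Cxcl3 are close relatives, so the split of reads among them is uncertain.

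Of the IL-6 family, colony stimulating factors, their receptors and SOCS genes, 13 of 20 rose and 4 fell. Csf1, which keeps macrophages alive, was the most abundant ligand, at 75.4, 78.2 and 73.7 FPKM in RC1 to RC3 and 167, 155 and 156 in RM1 to RM3. The shared receptor chain Il6st measured 56.2, 52.5 and 49.6 and 128, 141 and 136 FPKM, and the oncostatin M receptor Osmr 13.7, 10.7 and 11.5 and 38.2, 43.8 and 40.3. The RM libraries were higher than every RC library for all 3, with log2 fold changes of 1.06, 1.34 and 1.75. Csf3, the gene of G-CSF, rose from 0.117 ± 0.115 to 3.24 ± 0.401 FPKM (SD, n = 3), and Lif from 1.62 to 7.37. Socs3, which blocks signalling from this receptor family, rose by a log2 fold change of 1.05. Socs2 and Cntfr fell steeply, by -3.50 and -3.52, from low levels. Among TNF ligands and receptors, 8 of 19 rose and 2 fell, and the 2 became 3 without RC1 and 1 without any 1 of the other libraries, with DESeq2, library size alone, limma or the replicate block. Tnfrsf9 had the largest rise, from 0.316 to 5.68 FPKM, while the abundant death receptor gene Tnfrsf1a was not called at 94.3 and 106 FPKM.

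Among the acute phase genes, Lcn2 was the most abundant in RM. Lcn2 (ENSRNOG00000013973) encodes lipocalin-2, which withholds iron from bacteria. Its FPKM was 3.34, 4.17 and 4.53 in RC1 to RC3 and 1059, 1102 and 1101 in RM1 to RM3. The RM values lay close together and far above those of every RC library, and the log2 fold change was 8.07 (adjusted P = 1.50e-11). Lbp, which encodes a carrier of bacterial lipopolysaccharide, measured 10.3, 12 and 9.62 and 103, 91.1 and 90.6 FPKM (log2 fold change 3.14). Steap4, a metalloreductase gene, and Cp, the gene of ceruloplasmin, rose by log2 fold changes of 2.88 and 1.25. Ptx3, the gene of a soluble pattern receptor, went the other way, from 12.5 to 9 FPKM. In all, 13 of the 19 acute phase genes in the data were tested, of which 6 rose and 1 fell.

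Of the 31 complement genes in the data, 15 were tested, of which 6 rose and 2 fell. C3 (ENSRNOG00000046834), the component on which all complement routes meet, measured 0.031, 0.0996 and 0.11 FPKM in RC1 to RC3 and 46.9, 45.3 and 44.7 in RM1 to RM3. It was near 0 in each RC library and plain in each RM library (log2 fold change 9.15, adjusted P = 1.82e-10). C1s and C1r, proteases of the first component, measured 10.4, 9.26 and 9.15 and 28.4, 28.2 and 27.2 FPKM in the RC libraries and 92.7, 109 and 106 and 102, 110.4 and 111 in the RM libraries. Both rose, C1s by a log2 fold change of 3.40 and C1r by 1.93. Serping1, which encodes their inhibitor, rose from 1.69 to 5.4 FPKM, Cd55 by a log2 fold change of 1.85 and clusterin (Clu) by 0.99. Masp1 fell by -0.98.

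Of the genes for prostaglandin synthesis, transport and receptors, 9 of 19 rose and 5 fell. Beside Pla2g2a, the cytosolic phospholipase gene Pla2g4a rose from 16.2 to 28.4 FPKM. Ptgs2, which encodes cyclooxygenase-2, measured 9.21, 5.99 and 6.42 FPKM in RC1 to RC3 and 60.1, 47 and 45.3 in RM1 to RM3. Ptges, the gene of the inducible terminal synthase, measured 4.16, 6.22 and 5.17 and 96.2, 83.7 and 96.9 FPKM. No RC library reached the lowest RM library for either gene, and the log2 fold changes were 2.80 and 4.14 (adjusted P = 7.99e-07 and 1.01e-08). Ptges2, the gene of another terminal synthase, was not called at 6.14 and 6.8 FPKM. Ptgs1, the constitutive cyclooxygenase, fell from 31.9 to 22.6 FPKM, and so did Ptgds, which directs synthesis to prostaglandin D2, from 25.3 to 11.5. Among nitric oxide and arginine genes, 6 of 13 rose and 3 fell. Gch1, which makes the cofactor of nitric oxide synthase, rose from 2.88 to 9.52 FPKM, and Ass1, which recycles arginine, from 4.42 to 9.76.

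Of the matrix metalloproteinases, 6 of 15 rose and 4 fell, or 6 without RC1. The median log2 fold change was 0.09, and 0.05 to 0.15 with any 1 library left out. Summed over the list, the FPKM was 569, 613 and 580.1 in RC1 to RC3 and 1730, 1593 and 1674 in RM1 to RM3, and Mmp3, which had the largest rise, made up a mean of 817 of it in RM. Mmp13 and Mmp9 were also among the 6, with log2 fold changes of 3.03 and 5.19. Mmp10, the stromelysin-2 gene, measured 0.448, 0.809 and 0.973 FPKM in RC1 to RC3 and 46.2, 41.3 and 40.8 in RM1 to RM3, a gap of a log2 fold change of 5.85. Mmp12, the macrophage elastase gene, measured 0.539, 0.481 and 0.45 and 4.07, 4.18 and 3.38 FPKM. The groups were far apart for both. Mmp14, a membrane-bound enzyme and the most abundant member in the RC group, measured 295, 322 and 302 in the RC libraries and 267, 274 and 288 in the RM libraries. It was not called over all libraries (adjusted P = 0.0664) but was called down without RC1 (log2 fold change -0.21, adjusted P = 0.0175). Mmp15, another membrane-bound member, fell from 1.99 ± 0.172 to 0.472 ± 0.0668 FPKM (SD, n = 3).

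ADAMTS proteases and TIMP inhibitors fell more often than they rose, 10 against 6 of 20. Adamts5, the gene of a main aggrecan-cutting enzyme, measured 12, 11.5 and 10.4 FPKM in RC1 to RC3 and 29.6, 35.3 and 31.3 in RM1 to RM3 (log2 fold change 1.49, adjusted P = 1.14e-06). Timp3, which encodes the inhibitor of such enzymes that stays bound to the matrix, measured 139, 149 and 129.7 and 59.5, 59.7 and 57.7 FPKM. The groups did not overlap for either gene, and they moved in opposite directions, Timp3 by -1.25. Adamts4, the other well-known aggrecanase gene, fell from 2.05 to 1.44 FPKM. Timp1 rose from 307 to 453 FPKM, and Timp2 fell from 784 to 552. Reck, an inhibitor anchored in the membrane, fell by -0.76. Among cathepsins and the plasminogen system, 10 of 22 rose and 10 fell. Plat, which encodes a plasminogen activator, rose from 24.8 to 53.9 FPKM, while the cysteine protease gene Ctsk fell from 25.3 to 13.1.

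Cartilage collagens fell, 7 of 8, with a median log2 fold change of -1.18. Summed over the list, the FPKM was 4732, 5265 and 4706 in RC1 to RC3 and 2000, 2001 and 1965 in RM1 to RM3. The steepest fall was that of Col27a1 (ENSRNOG00000007657), a fibrillar collagen gene of cartilage, at 49.8, 50.9 and 52.4 FPKM in the RC libraries and 8.66, 9.92 and 10.3 in the RM libraries (log2 fold change -2.42, adjusted P = 1.34e-08). Col11a1 and Col11a2, which encode chains of the collagen that seeds type II fibrils, fell by -0.84 and -1.34. Collagens outside cartilage fell in 16 of 27 cases and rose in 5. Col3a1 fell from 917 to 469 FPKM, Col6a1 from 1262 to 807 and Col5a3 from 27.8 to 11.3. The basement membrane chain Col4a1 and the anchoring fibril gene Col7a1 rose, by log2 fold changes of 1.03 and 2.10. In bulk RNA, fewer cells of a type and less RNA per cell cannot be told apart.

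Genes of the aggrecan network and the cartilage glycoproteins had a list median of -1.35, with 17 of 21 down and 3 up. It was the lowest of the lists over all libraries, but without RC1 it was -1.20, beside -1.21 for the cartilage collagens. Acan, the gene of the large proteoglycan that holds water in cartilage, measured 488, 603 and 495 FPKM in RC1 to RC3 and 142, 154 and 164 in RM1 to RM3. The link protein gene Hapln1, whose product ties aggrecan to hyaluronan, measured 162, 106 and 129 and 47, 56.8 and 53.2 FPKM. Comp, which encodes a bridge between collagen fibrils, measured 256, 295 and 262 and 106, 109 and 108. For each of these the highest RM library was below the lowest RC library, with log2 fold changes of -1.80, -1.36 and -1.35 (adjusted P = 3.11e-07, 3.58e-05 and 3.84e-07). The matrilin genes Matn1 and Matn3 fell by -1.60 and -1.69, chondromodulin (Cnmd) by -1.41, Snorc by -1.72 and Cilp by -3.55.

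**Figure D4:**
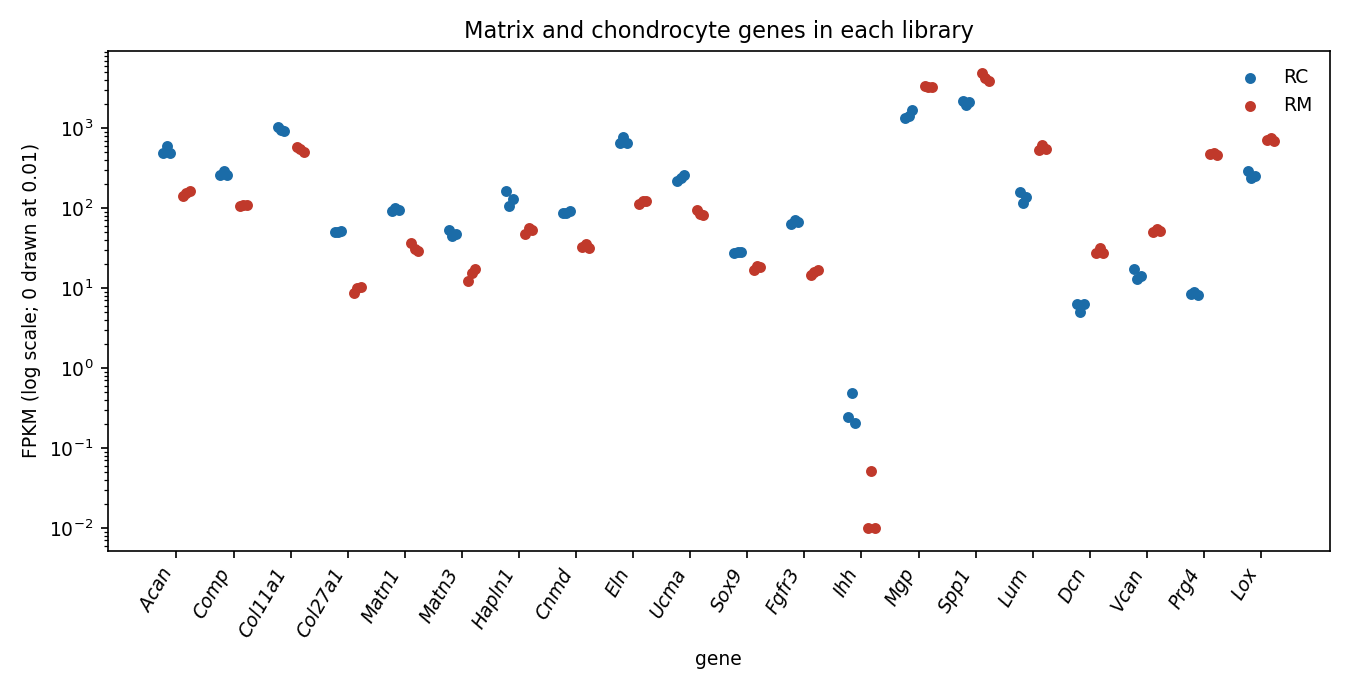
FPKM on a log scale for 20 matrix and chondrocyte genes, with RC1 to RC3 in blue and RM1 to RM3 in red, and values of 0 drawn at 0.01. The cartilage genes on the left are lower in each RM library, and Mgp, Spp1, Lum, Dcn, Vcan, Prg4 and Lox on the right are higher.

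The 3 rising genes of that list were Prg4, Vcan and Mgp. Prg4 (ENSRNOG00000002385) encodes lubricin, which coats joint surfaces. Its FPKM was 8.53, 8.81 and 8.14 in RC1 to RC3 and 473, 493 and 461 in RM1 to RM3, a log2 fold change of 5.79 (adjusted P = 1.50e-11). Mgp, the gene of an inhibitor of calcification, measured 1352, 1417 and 1668 and 3332, 3273 and 3315 FPKM, and versican (Vcan), a large proteoglycan of loose tissue, 17.3, 12.9 and 14.1 and 50.6, 54.4 and 51. The RM libraries were above the RC libraries without overlap for all 3. The summed FPKM of the list, in which short genes such as Mgp weigh more, was higher in RM, at 4449, 4434 and 4431 against 3022, 3179 and 3346. Its share of all counts was lower in RM, at 0.634%, 0.656% and 0.646% against 0.728%, 0.784% and 0.733%. Ucma, another cartilage gene with a role in calcification, fell from 242 to 87.3 FPKM.

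The small leucine-rich proteoglycans divided in a similar way, 2 up and 6 down of 10, where the 6 became 3 without RM2 or without RM3. Lum and Dcn, the genes of lumican and decorin, which bind collagen fibrils, rose. Lum measured 160.3, 117 and 138 FPKM in RC1 to RC3 and 535, 610.2 and 551 in RM1 to RM3, and Dcn 6.38, 5.04 and 6.31 and 27.6, 31.4 and 27.6. Fmod (fibromodulin) fell from 417 to 304 FPKM and Epyc (epiphycan) from 8.7 to 3.97. Enzymes of glycosaminoglycan and hyaluronan metabolism fell in 18 of 40 cases and rose in 9, and the 9 became 5 without RC3. The hyaluronan receptor gene Cd44 rose from 59.1 to 127 FPKM and Ugdh, which makes the sugar donor for these chains, from 38.8 to 85.1. Extl1 and Papss1, which act in heparan sulfate chain building and in sulfate activation, fell by -2.42 and -0.65.

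Elastic fibre genes moved both ways, with 7 of 20 up and 10 down. The crosslinking enzyme gene Lox measured 287, 238 and 250.5 FPKM in RC1 to RC3 and 720.1, 753 and 693 in RM1 to RM3 (log2 fold change 1.47), whereas its relative Loxl3 measured 282, 329 and 302 and 126, 129 and 132 (log2 fold change -1.25). The groups were separate for both genes, in opposite directions. Fibrillin-1 (Fbn1) rose from 21.6 to 46 FPKM while fibrillin-2 (Fbn2) fell from 7.05 to 2.42, and Ltbp2, which encodes a fibrillin-binding protein, rose by a log2 fold change of 1.44. Among matricellular genes, 6 of 17 rose and 9 fell. Spp1, which encodes osteopontin, measured 2180, 1947 and 2138 FPKM in the RC libraries and 4825, 4202 and 3874 in the RM libraries, among the 10 highest mean levels of the RM group. Thbs1 and Thbs2, the genes of thrombospondins 1 and 2, fell by -0.84 and -0.64, and Sparc by -0.56.

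Of the transcription factors of the chondrocyte and the skeleton, 11 of 26 fell and 2 rose, with a median log2 fold change of -0.28. The 11 became 7 without RC2 and 6 without RM3, and the 2 rises became 1 without RC3 or any 1 RM library. Sox9, the factor on which cartilage matrix genes depend, measured 27.7, 28.4 and 28.3 FPKM in RC1 to RC3 and 17, 18.8 and 18.6 in RM1 to RM3 (log2 fold change -0.65, adjusted P = 7.08e-05). The RM libraries were lower without overlap. Sox5, a partner of SOX9, was not called at 11.2 and 9.99 FPKM. Wwp2, which hosts a cartilage microRNA, fell from 52.6 to 27.5 FPKM. Of growth plate genes, 11 of 19 fell and 2 rose, and the 2 became 3 without RC1 and 1 without any 1 of the other libraries and in every other alternative except library size alone. Fgfr3, the receptor that slows chondrocyte division in the growth plate, measured 64, 71.2 and 67.9 and 14.7, 16.1 and 16.7 FPKM, and Alpl, the phosphatase of mineralizing cells, 6.69, 7.78 and 7.17 and 1.28, 1.44 and 1.63. Both were far lower in every RM library, by log2 fold changes of -2.11 and -2.32. Ihh, the hedgehog ligand of prehypertrophic cells, had 50 counts in RC and 3 in RM, so it was lower by a ratio of 17 (95% counting interval 5.51 to 85.4).

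In the BMP and TGF-β family, 18 of 51 genes rose and 14 fell. The BMP antagonist Grem1 measured 40.8, 32.1 and 36.1 FPKM in RC1 to RC3 and 324, 289 and 274 in RM1 to RM3, a log2 fold change of 3.01 (adjusted P = 1.34e-08). The activin chain Inhba rose from 10.7 to 39.3 FPKM, its antagonist Fst from 18.3 to 56.4, and the ligand Bmp6 from 0.773 to 8.64. The antagonists Chrd and Nog fell, by -1.15 and -0.82, so BMP antagonists moved in both directions. In the insulin-like growth factor axis, 9 of 20 fell and 2 rose, and the 2 became 1 without RC2, RC3 or any 1 RM library. Igfbp5, which encodes a binding protein, measured 44.7, 45.7 and 40.4 and 9.87, 7.79 and 8.45 FPKM, Igfbp4 fell by -1.69, and the ligand Igf2 fell from 207 to 102 FPKM. The receptor Igf1r was not called at 24.8 and 27.7 FPKM.

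Of the FGF, EGF, PDGF, VEGF and HGF genes, 14 of 33 rose and 6 fell. The ligands Fgf7 and Fgf10, which act on epithelia, rose from 40.6 to 135 and from 2.1 to 9.26 FPKM. The EGF receptor ligands Hbegf and Ereg rose by log2 fold changes of 1.36 and 1.29, and Vegfa, which drives vessel growth, by 0.98. Receptor genes went both ways: Fgfr2 and Fgfr4 fell, by -0.90 and -2.93, Met rose from 7.62 to 15.7 FPKM and Egfr from 7.55 to 9.91, and Fgfr1 and Pdgfra were not called. In the Wnt family, 14 of 38 fell and 7 rose, where the share of rises was near that of all genes tested. The secreted antagonist Sfrp2 rose from 5.65 to 18.5 FPKM and another, Frzb, fell from 32.6 to 18.7. The feedback inhibitor Nkd1 fell by -2.16, and the receptor Fzd1 rose by a log2 fold change of 1.08.

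Most genes of 3 cell cycle lists rose. Of 25 genes that license replication origins, 21 rose and 4 were not called, with a median log2 fold change of 0.86. Of 50 genes for DNA synthesis, nucleotide supply and repair, 48 rose and 2 were not called (median 0.74). Of 63 mitosis genes, 61 rose and 2 were not called (median 0.83). Without RC1 the numbers of rises were 21, 48 and 61, with medians of 0.85, 0.75 and 0.87, and 1 replication gene, Chek1, was called down (log2 fold change -0.17, adjusted P = 0.0363), as it was with the length trend removed. The medians of the 3 lists lay close to each other.

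**Figure D5:**
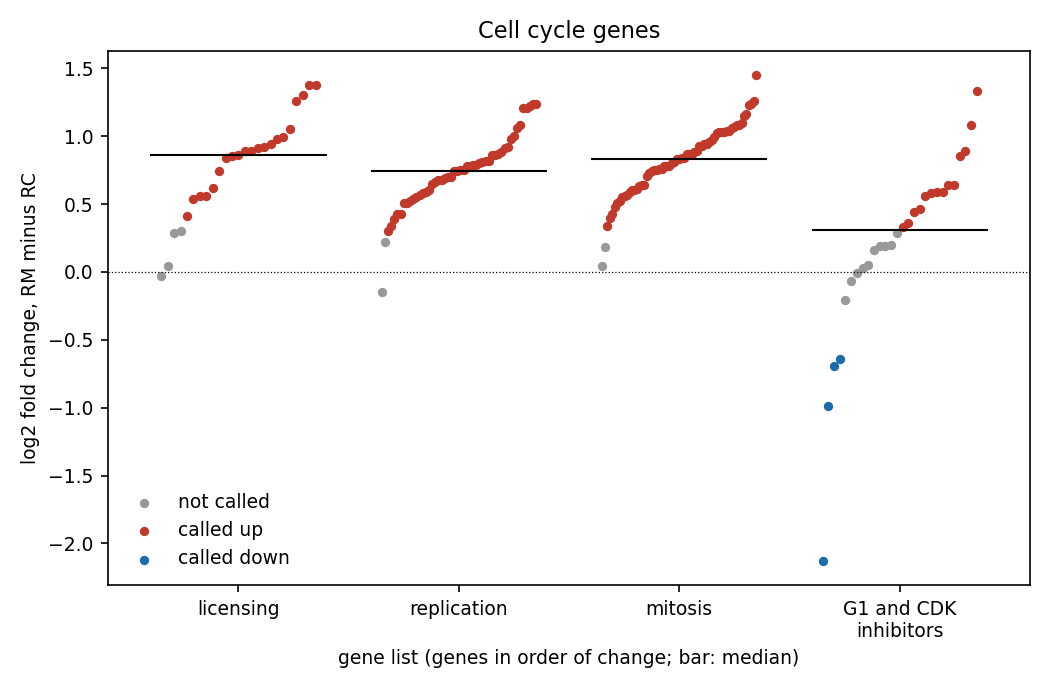
Each point is a gene of 4 cell cycle lists, in order of its log2 fold change, RM minus RC, with called genes in red (up) and blue (down). The black bars are the list medians, 0.86, 0.74, 0.83 and 0.31.

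Cdc6, which loads the replicative helicase, measured 5.98, 6.68 and 6.68 FPKM in RC1 to RC3 and 17.6, 16.7 and 16.4 in RM1 to RM3 (log2 fold change 1.38, adjusted P = 7.44e-07). Mcm6, a subunit of that helicase, measured 38.9, 41.7 and 41.7 and 73.5, 74.7 and 74.7 FPKM. Mki67, the gene of the proliferation marker Ki-67, measured 50.9, 32.4 and 37.7 and 74.8, 81.1 and 78.6. All 3 RM libraries were higher than all 3 RC libraries for each of these. Ribonucleotide reductase (Rrm2) rose from 86.2 to 172 FPKM, topoisomerase IIα (Top2a) from 40.3 to 86.1, and Cdk1 from 76.7 to 130.4. The kinesin gene Kif20b had the largest rise of the mitosis list, a log2 fold change of 1.45. Summed over the mitosis list, the FPKM was 1524, 1350 and 1458 in the RC libraries and 2386, 2563 and 2557 in the RM libraries.

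The regulators of entry into the cycle were mixed, with 14 of 28 up and 4 down. Ccne2, a cyclin of the start of DNA synthesis, rose from 7.11 to 18.1 FPKM, and E2f8 by a log2 fold change of 1.08. The D-type cyclin gene Ccnd1 was not called at 213 and 206 FPKM, and neither was the inhibitor Cdkn1a (p21) at 103 and 106. Cdkn1c (ENSRNOG00000059500), which encodes the inhibitor p57, measured 99.5, 105 and 113 FPKM in RC1 to RC3 and 26.1, 23.6 and 23.9 in RM1 to RM3. Its RM values were all far below its RC values (log2 fold change -2.13, adjusted P = 2.80e-08), and Cdkn2b and Ccnd2 fell by -0.99 and -0.69. Of 28 genes of p53 and its targets, 11 rose and 6 fell, and the 11 became 7 without RC2, RM1, RM2 or RM3 and 6 without RC3.

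The E2F motif was searched as TTTCCCGC, TTTCGCGC, TTTGCCGC and TTTGGCGC on both strands, where matches may overlap. It occurred in 4.1% of the 9566 windows of the genes tested and 2.25% of all windows, in 12 of 20 windows of the licensing list, 15 of 44 of the replication list and 3 of 54 of the mitosis list. Over all genes called up and down, the shares were 7.06% and 2.74%. The windows of 2 helicase subunits, also picked by hand, follow with matches in capitals. They are Mcm3 (chr9:30733697-30733996, minus strand) with 2 separate matches and Mcm6 (chr13:42404303-42404602, minus strand) with 2 overlapping ones.
Mcm3: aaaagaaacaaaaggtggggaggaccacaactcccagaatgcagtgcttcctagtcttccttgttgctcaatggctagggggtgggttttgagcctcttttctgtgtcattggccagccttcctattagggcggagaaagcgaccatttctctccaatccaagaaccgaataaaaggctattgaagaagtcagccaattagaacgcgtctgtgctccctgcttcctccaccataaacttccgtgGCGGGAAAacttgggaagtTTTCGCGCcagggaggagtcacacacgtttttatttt
Mcm6: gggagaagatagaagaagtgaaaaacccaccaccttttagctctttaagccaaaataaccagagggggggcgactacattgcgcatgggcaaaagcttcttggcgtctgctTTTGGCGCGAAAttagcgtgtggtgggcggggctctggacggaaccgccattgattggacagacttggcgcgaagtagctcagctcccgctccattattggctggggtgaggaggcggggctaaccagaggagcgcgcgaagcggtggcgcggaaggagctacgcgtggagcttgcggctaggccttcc

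Glycolysis and glucose transport genes rose in 23 of 44 cases and fell in 5, with a median log2 fold change of 0.28, and the 5 became 3 without RC3 or RM1. The lactate exporter gene Slc16a3 measured 19, 22 and 21.8 FPKM in RC1 to RC3 and 73.4, 70.7 and 74.9 in RM1 to RM3 (log2 fold change 1.79). The glucose transporter Slc2a1 rose from 41.4 to 83.4 FPKM, lactate dehydrogenase (Ldha) from 819 to 1232 and Pdk1, which keeps pyruvate out of mitochondria, from 17.4 to 33.3. Egln3, a prolyl hydroxylase gene induced by hypoxia, had the largest rise, from 0.303 to 6.91 FPKM, while the hypoxia marker Car9 was not called. Eno3, the muscle enolase gene, fell from 60.9 to 23.7 FPKM.

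The counts for nuclear genes of the respiratory chain and for the ribosome changed strongly when single libraries, RC1 among them, were left out. Of 82 respiratory chain genes, 18 fell and 2 rose with all libraries, at a median log2 fold change of -0.12, and without RC1 39 fell and 4 rose, at -0.20, while without RC3 the median was -0.05. The rises numbered 1 without RM2 or RM3, and the falls 5 without RC3, 8 without RM1, 4 without RM2 and 9 without RM3. Of 84 ribosomal protein genes, 9 fell and 75 were not called, at -0.12, and without RC1 38 fell, at -0.19, while without RC3 the median was -0.04. The falls numbered 16 with DESeq2, 15 with the length trend removed, 5 with library size alone, and 1 and 2 with limma on log2(FPKM + 1) and log2(FPKM + 0.1). Each of the 9 lost its call without RC3, RM1 or RM2, and 1 gene of the list was called up without RC3 or with the length trend removed. Many of these genes have close copies, which makes their counts uncertain. Summed over the ribosomal list, the FPKM was 36873, 37580 and 43801 in RC1 to RC3 and 36036, 35292 and 37755 in RM1 to RM3, so RC3 was the highest and the other libraries overlapped. Of 45 proteasome genes, 2 rose and 1 fell, against 9 and 11 without RC1, and 1 gene was called, up, without any 1 of the other libraries. The rises numbered 4 with DESeq2 or limma, and the falls 3 with DESeq2, no filter on low counts or the length trend removed and 2 with the replicate block, while the 1 fall lost its call with library size alone or limma.

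Genes of the amino acid stress response fell: 24 of 29 fell and 5 were not called, with a median log2 fold change of -0.57, and 1, Shmt2, was called up without RC2, with DESeq2, library size alone, no filter on low counts or the replicate block. Trib3, which encodes a pseudokinase induced by the factor ATF4, measured 48.4, 51.2 and 49 FPKM in RC1 to RC3 and 9.56, 15.4 and 17.2 in RM1 to RM3. Asns, which makes asparagine, measured 101, 108 and 104 and 48.8, 66.4 and 67.9 FPKM. The RM libraries were lower without overlap for both, by log2 fold changes of -1.83 and -0.79 (adjusted P = 1.96e-05 and 3.96e-04). Atf4 itself fell from 316 to 215 FPKM and Ddit3, the gene of CHOP, from 58.7 to 27.7. Of 44 genes for folding and collagen secretion, 22 fell and 3 rose, and the 3 became 6 without RC1. The collagen chaperone gene Serpinh1 measured 1554, 1739 and 1569 FPKM in the RC libraries and 811, 929.9 and 942 in the RM libraries, a log2 fold change of -0.87. The general chaperone Hspa5 was not called at 519 and 526 FPKM. Plod2, which prepares collagen for crosslinking, rose from 149 to 237.

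Antioxidant genes fell in 12 of 33 cases and rose in 5. Sod2, the mitochondrial superoxide dismutase gene and an NF-κB target, measured 18.7, 18.7 and 20.5 FPKM in RC1 to RC3 and 299, 336 and 319 in RM1 to RM3 (log2 fold change 4.03, adjusted P = 1.82e-10). The NRF2 target Nqo1, a quinone reductase gene, measured 571, 619 and 637 and 329, 265 and 296 FPKM, with every RM library below every RC library (log2 fold change -1.05). Catalase (Cat), extracellular Sod3 and the ferritin gene Ftl1 fell by -0.89, -0.69 and -0.59. Of metallothionein and zinc transporter genes, 7 of 21 rose and 2 fell, and the 2 became 1 without any 1 library other than RC1, with DESeq2, no filter on low counts or limma. The zinc importer genes Slc39a14 and Slc39a8 rose from 29.3 to 96.9 and from 10.6 to 31.1 FPKM. The metallothionein gene Mt2A, which has close relatives, measured 128, 116 and 147 FPKM in the RC libraries and 659, 733 and 638 in the RM libraries. Of sterol and fatty acid genes, 9 of 41 rose and 8 fell, shares near those of all genes tested. The rises numbered 5 without RC2 or RC3 and 4 without RM2 or RM3, and the falls 14 without RC1 and 4 without RM1. Srebf1, the regulator of fatty acid synthesis, fell in each RM library, from 78, 93.5 and 79.8 to 18.4, 19.5 and 21.6 FPKM (log2 fold change -2.09), while Srebf2, the regulator of cholesterol synthesis, was not called (34.4 and 35.7).

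Of 43 interferon response genes, 8 rose and 5 fell, beside 18.3% and 16.8% of all genes, and the 8 became 3 without RC3 and 4 without any 1 RM library. Irf1, a transcription factor gene of that response, measured 10.8 FPKM in RC and 11.6 in RM and was not called. Antigen presentation genes rose in 5 of 27 cases, a share near that of all genes, and in 3 without RM1 or RM3, while 1 was called down without RC1. Of 18 genes for adhesion and recruitment of leukocytes, 9 were tested. Of these, 5 rose, but 2 without RC3 and 3 without any 1 RM library. Tissue factor (F3), which starts clotting, rose from 6.42 ± 0.522 to 28.1 ± 3.51 FPKM (SD, n = 3), with a log2 fold change of 2.11. Contractile genes were mixed, 6 up and 8 down of 24. The smooth muscle actin gene Acta2 fell from 27.5 to 15.4 FPKM and Tpm4, a tropomyosin gene, rose from 629 to 853.

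Among 18 clock genes, 5 rose and 5 fell. Bhlhe40, a repressor in the clock, rose from 20.2 to 40.9 FPKM and Dbp, an output gene, fell from 22.9 to 14.8. Of 17 glucocorticoid-responsive genes, 10 rose and 4 fell, with 2 falls when RC3, RM1 or RM3 was left out. Angptl4, an inhibitor of lipoprotein lipase, rose from 0.34, 0.502 and 0.677 FPKM in the RC libraries to 15.6, 15.9 and 16.5 in the RM libraries, and Hsd11b1, which makes active glucocorticoid, rose by a log2 fold change of 1.98. Sgk1 and Tsc22d3, classic targets of the glucocorticoid receptor, fell by -1.07 and -0.73. Of 23 apoptosis genes, 9 rose and 7 fell, with the 7 at 3 or 4 without RC3 or any 1 RM library. Bid, which links death receptors to mitochondria, rose by a log2 fold change of 1.14 and Casp4, an inflammatory caspase gene, fell by -1.28. Hox genes, which mark position along the body, had a list median of -0.02, with log2 fold changes from -1.01 to 0.59 and 1 of 18 called (Hoxd9, down). The lowest value was that of Hoxa11, with 54 counts in RC and 27 in RM, which passed the study's criteria but was not called (adjusted P = 0.0813). The call of Hoxd9 was lost without RC2, RC3 or any 1 RM library (adjusted P = 0.0721 to 0.106) and with limma, and 2 Hox genes were called down without RC1.

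Several large changes lay outside the pathways. Pvalb, which encodes a calcium buffer, measured 0.374, 0.16 and 0.441 FPKM in RC1 to RC3 and 26, 23.5 and 33 in RM1 to RM3 (log2 fold change 6.35, adjusted P = 8.88e-08). Each RM library was far above the RC libraries, although RC rests on 12 counts. Clec3a, a cartilage lectin gene, measured 75, 57.9 and 70.4 and 13.5, 13.3 and 13 FPKM and fell by -2.37. Enpp6, a choline phosphodiesterase gene, Wscd2 and Adh7, an alcohol dehydrogenase gene, fell by -2.61, -2.41 and -2.36. The highest mean levels of both groups were those of mitochondrial genes and of Fn1, the fibronectin gene, which rose from 5919 to 7440 FPKM, a call that was lost with limma on either log2 FPKM scale.

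The cell type on the label was checked against marker lists. All 10 chondrocyte markers were expressed in every library and fell in RM, with a summed FPKM of 5143, 5716 and 5081 in RC1 to RC3 and 2022, 2053 and 2009 in RM1 to RM3, and Col2a1 the most abundant. The labelled cell type was thus present in both groups, with lower marker levels in RM. Fibroblast and synovial markers, 10 of 10 tested, summed to 3722, 4257 and 3790 in RC and 2839, 2901 and 2946 in RM, with Col1a1 the most abundant. Of the 10, 4 fell and 2 rose, the larger rise being that of Prg4, so fibroblast-like cells or dedifferentiated chondrocytes cannot be told apart here. Macrophage markers, 6 of 11 tested, summed to 9.65, 11.6 and 10.5 in RC and 16, 10.9 and 12.5 in RM, led by Cd68, with 2 of the 6 up and 2 down and Aif1 under 10 counts over the 6 libraries. Other leukocyte markers, 1 of 6 tested, summed to 4.06, 3.96 and 3.42 in RC and 1.16, 1.12 and 1.73 in RM, mostly Laptm5, which fell, with Mpo and S100a8 under 10 counts. Endothelial markers, 1 of 8 tested, summed to 6.83, 9.95 and 8.66 in RC and 7.44, 5.55 and 6.88 in RM, led by Egfl7, with Cdh5, Emcn, Kdr and Tie1 under 10 counts. Skeletal muscle markers, 3 of 11 tested, summed to 8.33, 8.24 and 7.87 in RC and 5.48, 5.65 and 4.6 in RM, with Acta1, Ckm and Myog under 10 counts.

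Smooth muscle and pericyte markers, 7 of 7 tested, summed to 105, 126 and 111 in RC and 77.2, 77 and 76.7 in RM, with 5 down and 1 up. Osteoblast markers, 4 of 8 tested, summed to 2189, 1956 and 2147 in RC and 4827, 4205 and 3877 in RM, almost all of it Spp1. Of the other 3 tested, Alpl and Sp7 fell, by -2.32 and -1.61, and the list median was -1.02, with Bglap under 10 counts. The 2 falls became 1 without RC2, RC3, RM1 or RM3 or with DESeq2, when Sp7 was not called. Osteoclast markers, 3 of 5 tested, summed to 32.1, 31.7 and 33.6 in RC and 27.2, 23.2 and 24.5 in RM, led by Ctsk. Of the 3, 2 fell and 1, Mmp9, rose. Adipocyte markers, 2 of 7 tested, summed to 7.02, 6.29 and 8.24 in RC and 70.3, 52.6 and 45.4 in RM, nearly all from Fabp4, a fatty acid carrier gene, while Pparg fell and Lep and Cfd had under 10 counts. Epithelial markers, 3 of 8 tested, summed to 14.7, 15.3 and 17.5 in RC and 3.06, 3.53 and 3.92 in RM, led by Krt8, with Cdh1, Krt5 and Krt14 under 10 counts. Schwann and neural markers, 3 of 8 tested, summed to 1.6, 1.88 and 1.49 in RC and 1.12, 1.25 and 1.4 in RM, and erythroid markers, 1 of 4 tested, to 0.361, 0.557 and 0.765 in RC and 1.17, 1.13 and 1.57 in RM. The 1 erythroid gene tested, Ahsp, was called up over all libraries but not without RC1, RC2 or any 1 RM library, nor with DESeq2 or no filter on low counts. Of 13 leukocyte, 11 erythroid and 10 endothelial markers listed, only 6, 4 and 8 were in the data. Those missing include Cd3e, Ms4a1, Pecam1 and the haemoglobin genes, so the sums say nothing about them. The part of other cell types in the changes above was not tested.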

How the data were processed

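Counts and FPKM for each Ensembl gene and library were used as the authors deposited them. The submitters' processing notes name HISAT2, HTSeq 0.11.2 and the build Rnor_6.0. They do not state the annotation release or whether counting used the strand, which leaves overlapping genes and close copies uncertain.

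The test ran in edgeR 4.0.16 under R 4.3.3, with filterByExpr, TMM scaling, glmQLFit and glmQLFTest, on the counts of RC1 to RC3 against RM1 to RM3, with Benjamini-Hochberg adjustment over all 13303 genes tested. FPKM values are the authors' and were not tested in the main comparison. Alternatives used limma 3.58.1 and DESeq2 1.42.0. Groups of 3 cannot reach an exact permutation P under 0.1, so the P values rest on edgeR's model across genes.

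Members, lists and alternatives were chosen with earlier results of these data known. The rule for named genes takes the 12 largest rises and falls among called genes whose mean FPKM reached 10 in a group and whose groups did not overlap, the 6 largest of these without a mouse symbol in each direction, the 10 most abundant genes of each group, and of each list up to 4 called genes with the smallest adjusted P and up to 2 abundant genes not called. The text leaves out some genes that this rule picks. Among them are the falls of Gdf10, Fzd9, Aqp1 and Eln, with log2 fold changes of -3.24, -3.00, -2.75 and -2.54. Some large rises are left out as well, such as that of Cxcl6 (9.55). List members outside the rule that the text names were chosen after their values were seen. Promoter windows were matched by symbol to RefSeq genes on GRCr8 and are a description only.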

Additional observations from a re-analysis of the deposited data

How the results depend on the processing

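With 14 alternatives, the numbers of genes called up and down by adjusted P stayed within 1.5 times 2429 and 2238. DESeq2 gave 2418 and 2189, library size alone 2569 and 2094, the replicate block 2436 and 2098, and removal of each library's trend with gene length, chosen after seeing the data, 2396 and 2475. With any 1 library left out, the numbers ran from 1735 to 3243 up and from 1568 to 3008 down, both highest without RC1. By the study's criteria the numbers stayed within 1.5 times 617 and 519 with any 1 library left out (568 to 759 up, 511 to 572 down), but limma on log2(FPKM + 1) gave 406 and 275. That pseudocount shrinks fold changes at low FPKM, and with 0.1 in its place limma gave 620 and 463. Some list medians were smaller with log2(FPKM + 1) too, at 0.62 for the NF-κB list and 1.94 for the CXC chemokines. With log2(FPKM + 0.1) these were 0.98 and 2.54. A log2 threshold of 1 gave 443 and 382, adjusted P values 597 and 496, and no FPKM filter 756 and 736. No gene of the 4667 called was called in the opposite direction by any alternative run. Of the 4667, the replicate block called 4302 in the same direction. The deviations of same-numbered libraries from their group means had correlations over genes of 0.0241, -0.0977 and 0.0849, which gives no sign that the numbers pair the samples. Over 352 named genes and these alternatives, 4783 of 4927 values kept their direction and side of the threshold, 85 lost the call, 59 gained it and 0 reversed. Many of these genes were picked by their change or adjusted P in the main fit, so that agreement was largely fixed in advance. Of all 4667 called genes, 3216 kept the call without RM2, the fewest with 1 library left out, and 4496 without RC1, the most.

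A count of 0 in 1 library allows up to 0.116 to 0.149 CPM in that library. The data hold 3 libraries a group, 1 dose and 1 time, and the methods call the samples independent without saying whether they were separate animals.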

Other observations

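More groups of genes were listed after their values were seen, so their counts describe the data and test nothing. Over all genes, 18.3% rose and 16.8% fell. Of 26 imprinted genes tested, which are expressed from 1 parental copy and mostly govern growth, 14 fell and 12 were not called, with a median log2 fold change of -0.39, and 1 was called up with limma. Their summed FPKM was 1589, 1556 and 1509 in RC1 to RC3 and 933, 1016 and 988 in RM1 to RM3. Zim1 measured 19.9, 14.7 and 13.1 and 2.25, 4.22 and 3.23 FPKM, Peg3 283, 214 and 217 and 92.3, 116 and 101, and Plagl1 92.2, 98.4 and 83.9 and 36.9, 44.1 and 46.1. Igf2 and Cdkn1c, described above, belong to the same group.

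Of 10 tubulin genes tested, 6 rose and 4 were not called, and their summed FPKM was 1531, 1738 and 1774 in the RC libraries and 2333, 2277 and 2490 in the RM libraries. Of 32 potassium channel genes tested, 10 fell and 1 rose, with a summed FPKM of 104, 107 and 104 in the RC libraries and 68.3, 69.6 and 70.7 in the RM libraries. Of 21 integrin genes, 6 rose and 4 fell, and their summed FPKM overlapped, at 801, 743 and 753 in RC and 791, 757 and 740.4 in RM. Of 19 semaphorin genes, 7 fell and 1 rose, or 2 without RC1, and the sums overlapped as well, at 333, 236 and 265 in RC and 250.4, 262 and 243 in RM. Of the 13 protein genes encoded in mitochondrial DNA, 4 rose and 9 were not called. The 4 became 10 without RC1 and 2 without any 1 RM library or with limma. Their summed FPKM was 38196, 30078 and 36958 in RC and 41323, 41681 and 38054 in RM, where RM3 lay just below RC1.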
